A study of Rattus norvegicus with 25 samples.

Results

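The clusters that encode miR-23, miR-27 and miR-24 are 2 short genomic runs of microRNA hairpins, one called here cluster a (miR-23a, miR-27a and miR-24-2) and the other cluster b (miR-23b, miR-27b and miR-24-1). The members described are 7 of the 764 mature miRNAs in the table, chosen by name: rno-miR-23a-3p, rno-miR-23b-3p, rno-miR-23b-5p, rno-miR-24-3p, rno-miR-27a-3p, rno-miR-27b-3p and rno-miR-27b-5p. The 4 remaining arms of these hairpins in the table (miR-23a-5p, miR-27a-5p, miR-24-1-5p and miR-24-2-5p) are described beside them. The counts come from mitochondria of the red gastrocnemius, an oxidative hindlimb muscle, of male Wistar-Kyoto rats. They were pulled out with magnetic beads from a kit made for mouse tissue and treated with RNase A, which digests unprotected RNA, and then with proteinase K. Rats were allocated at 5 weeks of age. The 13 trained rats underwent treadmill running over 4 weeks, on 5 days of each, and the 12 sedentary rats stood on a stationary treadmill over the same weeks. Each library was taken as 1 rat, by the number in its title.

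Each cluster is transcribed as 1 primary RNA, from which several hairpins are cut and then diced to mature strands of about the same length. miR-24-3p is made by both clusters with the same sequence. In muscle, miR-23a is known to repress the ubiquitin ligases atrogin-1 and MuRF1, which act in atrophy, and PGC-1α, a driver of mitochondrial biogenesis. miR-27 is known to repress Pax3 in muscle precursor cells and PPARγ in fat. miR-24 is known to act in myoblast differentiation and in endothelium.

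In the RefSeq gene table of rat assembly GRCr8 the order of the hairpins in transcription is Mir23a, Mir27a, Mir24-2 in cluster a, within 389 bases, and Mir23b, Mir27b, Mir24-1 in cluster b, within 814 bases. Cluster b lies inside the protein-coding gene Aopep, and Mir24-1 is also overlapped by Mir3074 on the opposite strand. No build is named for the counts, so no coordinates are printed. The mature sequences follow because the a and b forms are told apart by a single base near the 3′ end. They are written 5′ to 3′, from RefSeq on GRCr8, with the seed (bases 2 to 8) in capitals.
rno-miR-23a-3p: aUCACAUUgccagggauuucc
rno-miR-23b-3p: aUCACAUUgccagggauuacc
rno-miR-27a-3p: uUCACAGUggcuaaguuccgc
rno-miR-27b-3p: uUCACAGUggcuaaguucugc
rno-miR-24-3p: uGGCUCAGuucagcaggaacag
rno-miR-23b-5p: gGGUUCCUggcaugcugauuu
rno-miR-27b-5p: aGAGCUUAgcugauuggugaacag
rno-miR-27a-5p: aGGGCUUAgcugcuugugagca
rno-miR-24-2-5p: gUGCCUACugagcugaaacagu
rno-miR-24-1-5p: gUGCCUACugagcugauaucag

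The seed, the stretch that pairs with target mRNAs, groups these strands. miR-23a-3p and miR-23b-3p share the seed UCACAUU and differ by U19A (the base of the a form first, counted from the 5′ end). miR-27a-3p and miR-27b-3p share UCACAGU and differ by C19U. No other rat mature miRNA in the RefSeq table had either seed, and none shared that of miR-24-3p. The sources used here do not say how reads with a mismatch at such a base, or ending before it, were counted. None of these rows was among those with counts within 10% of another row across libraries, a mark of rows that share reads. This mark does not detect agreement in some libraries alone, or sharing of part of the reads. It also cannot judge arms with few or no counts. Whether the a and b forms share reads was therefore not settled.

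Total counts ranged from 26793 to 202388 in trained and from 12181 to 186006 in sedentary libraries. A count of 0 in a single library therefore allowed a level of up to 14.8 to 246 CPM (the count scaled to a common library total in the usual way), and a count of 0 over all 2094773 counts up to 1.43 CPM. These limits cover counting error only, since reads of PCR copies are not independent molecules. No 0 is read as absence, because filters applied upstream are unknown. Of 7 leukocyte markers 4 had a count, while those at 0 throughout were miR-155-5p, miR-223-3p and miR-142-3p. Of 4 red-cell markers 1 had a count, miR-486, which is also on the muscle list, and miR-451-5p and both arms of miR-144 were at 0. The muscle marker list held 21.1% to 40.7% of counts in trained and 18.8% to 42.7% in sedentary libraries.

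The first question was how many counts of each member the libraries held. Together the 7 members had 7065 counts, 0.296% ± 0.180 of a library (SD, n = 25), and miR-27b-3p and miR-24-3p made up 84.4% of them. The highest member was miR-27b-3p in 13 libraries, miR-24-3p in 11 and miR-23a-3p in the remaining 1, trained library 5. Between 1 and 6 members had a count in a library, with a median of 3.

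miR-27b-3p, the main strand of the cluster b hairpin, had a count in all 25 libraries and at least 10 counts in 20. In trained libraries its lowest, median and highest levels were 55.1, 1375 and 3349 CPM, and in sedentary libraries 15.9, 1151 and 3672 CPM. Trained libraries 25 and 27 and sedentary library 7 were highest, sedentary libraries 15 and 19 and trained libraries 17 and 18 were among the lowest, and the groups overlapped over nearly their whole range. Its mean of 1278 ± 1121 CPM (SD, n = 25) placed it 55th by mean among the 260 miRNAs with a count. By comparison miR-1-3p, the most abundant muscle miRNA, was at 106248 ± 41283 CPM.

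miR-24-3p, the strand that both clusters encode, had a count in 24 libraries and at least 10 counts in 20. Its lowest, median and highest levels were 11.7, 715 and 3708 CPM in trained and 0, 1696 and 2757 CPM in sedentary libraries. It was at 0 counts in sedentary library 15, of 62797 counts, while each of the other 11 sedentary libraries had at least 10. The mean was 1223 ± 997 CPM (SD, n = 25), the 57th. The next row by mean above miR-27b-3p was miR-92a-3p (1387 ± 1875 CPM). Between miR-27b-3p and miR-24-3p lay miR-146b-5p (1260 ± 2055 CPM), and next below miR-24-3p was miR-28-3p (1220 ± 1134 CPM). These rows were picked for their nearness in level, so a small difference from the members was fixed by that choice.

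miR-27a-3p, which carries the same seed as miR-27b-3p, had 573 counts in 14 libraries and was at 0 in 11. Its lowest, median and highest levels were 0, 38.3 and 741 CPM in trained and 0, 13.4 and 1432 CPM in sedentary libraries. Sedentary libraries 11, 30 and 32 were at 1432, 1069 and 1110 CPM while 6 of the 12 sedentary libraries had none, so the level split within a group. The mean of 260 ± 424 CPM (SD, n = 25) was the 101st.

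The miR-23 strands were sparse. miR-23a-3p had 203 counts in 6 libraries, and 3 of these had at least 10 counts: trained library 5 (951 CPM), trained library 25 (804 CPM) and sedentary library 7 (194 CPM). miR-23b-3p had 136 counts in 8 libraries, and again 3 had at least 10: trained library 5 (462 CPM), trained library 26 (394 CPM) and sedentary library 7 (306 CPM). Trained library 5 and sedentary library 7 were thus the ones with at least 10 counts of both forms, and trained library 25, with 62.1% of all miR-23a-3p counts, had 0 of miR-23b-3p. The medians of both were 0 CPM in each group.

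The counts of the 5p arms of miR-23b and miR-27b rested mainly on single libraries. miR-23b-5p had 159 counts in 5 libraries, and 92.5% of them came from trained library 25, at 938 CPM. miR-27b-5p had 28 counts, 26 of them in sedentary library 30 and 2 in sedentary library 7. No trained library had a count of it.

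**Figure D1:**
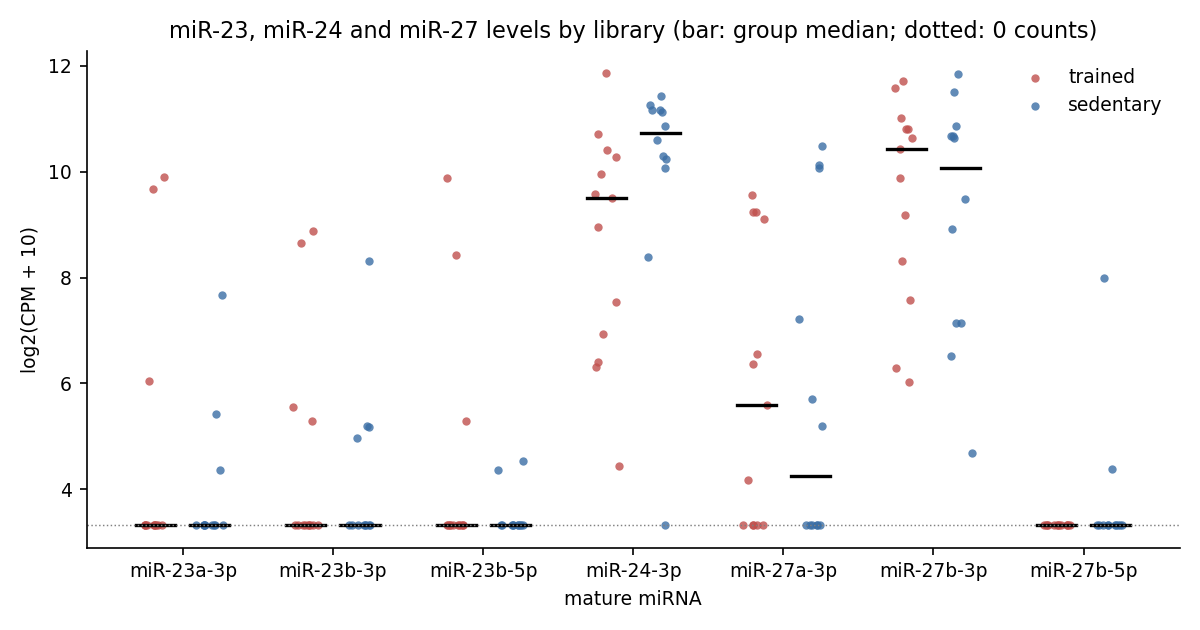
Levels of the 7 members as log2(CPM + 10) on the y axis, 1 point per library, for trained (n = 13) and sedentary (n = 12) rats. Bars are group medians and the dotted line marks 0 counts. miR-27b-3p and miR-24-3p were measured in most libraries, whereas the medians of miR-23a-3p, miR-23b-3p, miR-23b-5p and miR-27b-5p lay at 0.

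Cluster a was then compared with cluster b within each library, where both values share the depth. All mature strands were 21 to 24 bases long, so counts were not divided by length. miR-27a-3p was below miR-27b-3p in 23 of 25 libraries. The mean difference was -1019 CPM (SD 1158, n = 25; two-sided paired permutation test, p = 4e-05, adjusted p = 0.0001 over 10 pairs). The exceptions were trained library 5 with 540 against 308 CPM and sedentary library 30 with 1069 against 131 CPM. The order held in both groups, with -1113 CPM (SD 1084) in trained and -917 CPM (SD 1273) in sedentary libraries.

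The difference between miR-23a-3p and miR-23b-3p did not pass this test. Of the 25 libraries, 14 had neither, the a form was higher in 4 and the b form in 7, and the mean difference was 30 CPM (SD 208, n = 25; paired permutation test, p = 0.563, adjusted p = 0.703). 4 libraries had at least 10 counts in the pair, so few libraries bear on this pair. The sign of the mean turned without trained library 25, at -2.49 CPM.

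Over all arms that only 1 cluster can encode, cluster a had 2362 counts and cluster b 3598. Cluster a was higher in 12 libraries, cluster b in 12, and sedentary library 15 had 1 count of each. In trained libraries the split was 5 to 8, and in sedentary libraries 7 to 4. Cluster b counts were nearly all miR-27b-3p, while those of cluster a were spread over miR-27a-5p (841), miR-24-2-5p (745), miR-27a-3p and miR-23a-3p. These sums are a description with no test.

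The counts of strands of 1 transcript were uneven in cluster b, while the pair of cluster a did not pass the reported test. In cluster b, miR-23b-3p was below miR-27b-3p in 24 of 25 libraries (mean difference -1226 CPM, SD 1111, n = 25; paired permutation test, p = 1e-05, the smallest these resamples can give, adjusted p = 3.33e-05). Trained library 5 was the exception, with 462 against 308 CPM. In cluster a, miR-23a-3p was below miR-27a-3p in 11 libraries and above it in 4, with a mean difference of -178 CPM (SD 485; paired permutation test, p = 0.0799, adjusted p = 0.114). That pair passed the threshold on the log2(CPM + 10) scale, at -1.56 (paired permutation test, adjusted p = 0.0223), and without trained library 25, at -217 CPM (adjusted p = 0.0287, paired permutation test).

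miR-24-3p, which both clusters encode, exceeded 3 of the 4 other 3p strands. Its counts pool both clusters, so these pairs do not compare strands of 1 transcript alone. It was above miR-23a-3p in 22 libraries by 1141 CPM (SD 1067), above miR-23b-3p in 24 by 1171 CPM (SD 1003) and above miR-27a-3p in 20 by 964 CPM (SD 1045; n = 25 each; paired permutation tests, adjusted p = 0.0001, 3.33e-05 and 0.0001). Against miR-27b-3p it was higher in 12 libraries and lower in 13, and the mean difference of -55 CPM (SD 1405) did not pass (paired permutation test, p = 0.847, adjusted p = 0.941). The differences of that last pair ranged from -2635 to 3652 CPM between libraries, as the plot of differences by pair shows.

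**Figure D2:**
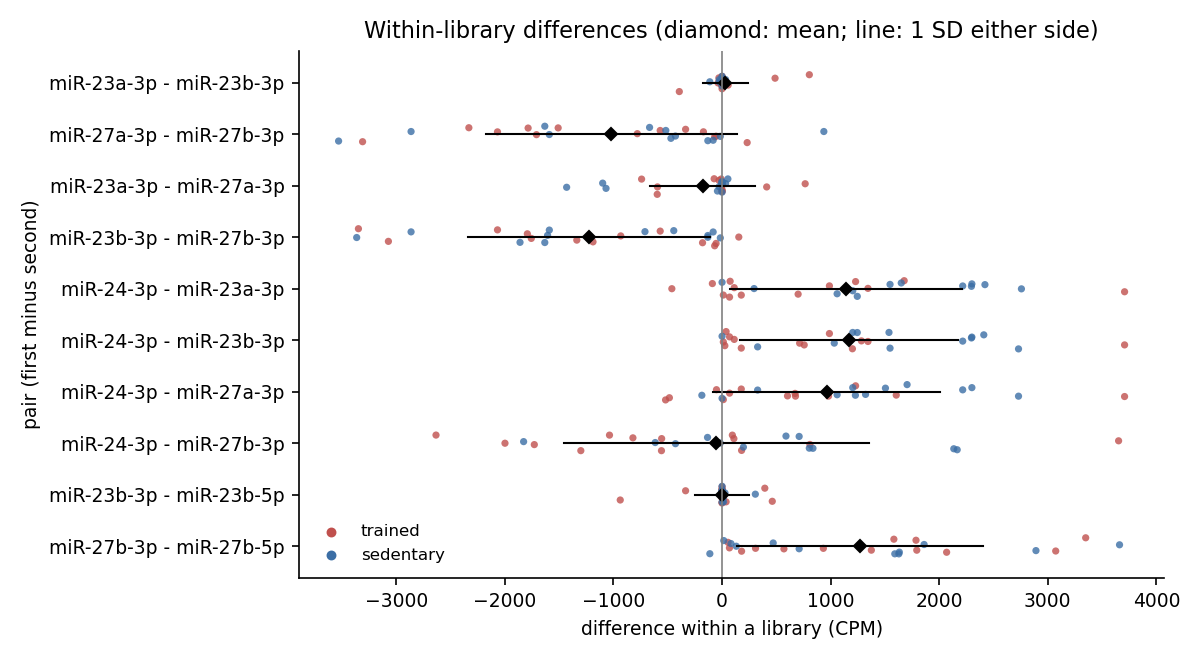
Differences between 2 members within a library, in CPM on the x axis, for the 10 pairs on the y axis (first minus second), 1 point per library. Diamonds are means over 25 libraries and lines extend 1 SD to either side. Nearly all points lie to the left of 0 for miR-27a-3p and miR-23b-3p against miR-27b-3p, and they lie on both sides for miR-24-3p against miR-27b-3p.

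Across libraries, the relation between miR-24-3p and miR-27b-3p did not pass a test. On the log2(CPM + 10) scale Pearson's r was 0.27 (permutation p = 0.188, adjusted p = 0.376 over 3 relations) and Spearman's rho 0.17 (permutation p = 0.424, adjusted p = 0.424, n = 25). Without the 2 libraries farthest from the median of miR-24-3p r was -0.0088. Within groups, given without a test, r was -0.085 in trained and 0.67 in sedentary libraries. Sedentary library 15 had the lowest sedentary level of both members (0 CPM of miR-24-3p and 15.9 CPM of miR-27b-3p). Its part in the sedentary r was not tested. Neither member's relation to the total count of the library passed. Pearson's r was 0.13 for miR-24-3p (permutation p = 0.546, adjusted p = 0.546) and 0.24 for miR-27b-3p (permutation p = 0.251, adjusted p = 0.376). Spearman's rho was 0.20 and 0.27 (permutation p = 0.336 and 0.182, adjusted p = 0.424 for both). Without the 2 libraries farthest from the median total count, on a log scale, r was 0.22 and 0.043.

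By Spearman's rho over the 25 libraries, given as a description, the rows most like miR-24-3p among the other 75 tested were miR-26a-5p (0.54), the endothelial miR-126a-3p (0.49) and let-7g-5p (0.41). Those most like miR-27b-3p were let-7e-5p and miR-3596c (0.68 each, rows that carry nearly the same counts) and miR-1b (0.51). The median rho over all tested rows was 0.050 for miR-24-3p and 0.061 for miR-27b-3p. These points share library totals and depth.

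The 2 arms of a hairpin were compared next. miR-27b-3p exceeded miR-27b-5p in 24 of 25 libraries, by 1268 CPM (SD 1131, n = 25; paired permutation test, p = 1e-05, adjusted p = 3.33e-05), and the 5p arm held 0.848% of the hairpin's counts. The exception was sedentary library 30, with 26 counts of the 5p and 14 of the 3p arm. The difference between miR-23b-3p and miR-23b-5p did not pass (mean -0.94 CPM, SD 246, n = 25; paired permutation test, p = 0.984, adjusted p = 0.984), and no library had at least 10 counts of both. Without trained library 25, which held most of the 5p counts, the difference was 38.1 CPM (paired permutation test, adjusted p = 0.217).

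The miR-27a hairpin gave more counts from its 5p than from its 3p arm. miR-27a-5p had 841 counts, 59.5% of the hairpin's total, although the 3p arm is the strand usually treated as the functional one. The 5p arm was higher in 9 libraries and the 3p arm in 10, and 6 libraries had neither. In 6 libraries both had at least 10 counts, and in another 6 one arm had at least 10 and the other 0. Sedentary library 3 had 149 counts of the 5p arm with 0 of the 3p arm, and trained library 18 had 130 with 0. Sedentary library 32 had 105 of the 3p arm with 0 of the 5p arm. Over the 111 hairpins with at least 100 counts and both arms in the table, the median share of the minor arm was 0%. 104 of them had a smaller minor share than miR-27a (40.5%) and 107 a smaller one than miR-23b (46.1%), while miR-27b, at 0.848%, stood above 82. Without trained library 25 the 5p arm of miR-23b had 12 counts against 136 of the 3p arm, a minor share of 8.11%, with 94 of 110 hairpins below it. Without sedentary library 30 the minor share of miR-27b was 0.0613%, from 2 counts of the 5p arm. For miR-27a the 5p arm held 54.7% to 64.2% of the counts without any 1 library. This arm comparison was chosen after the values were seen and carries no test.

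The hairpins of miR-27a and of both miR-24 genes show where these strands lie. Mature arms are in capitals, and the 2 miR-24 hairpins carry the same 3p strand (RefSeq, GRCr8, 5′ to 3′).
Mir27a: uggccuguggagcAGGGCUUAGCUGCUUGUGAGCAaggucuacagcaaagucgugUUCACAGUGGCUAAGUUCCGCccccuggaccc
Mir24-1: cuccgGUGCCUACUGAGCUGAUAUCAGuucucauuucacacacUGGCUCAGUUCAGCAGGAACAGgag
Mir24-2: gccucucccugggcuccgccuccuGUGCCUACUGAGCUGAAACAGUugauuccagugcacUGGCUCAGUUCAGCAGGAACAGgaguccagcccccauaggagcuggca

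Since the 3p strands are identical, the 5p arms are the rows that separate the miR-24 genes, and they differ at 5 of 22 positions. All 745 counts were of miR-24-2-5p from cluster a. miR-24-1-5p of cluster b was at 0 in the table, as was miR-23a-5p, which allows up to 1.43 CPM each over all libraries. miR-3074, the antisense row at Mir24-1, was at 0 as well. miR-24-2-5p had at least 10 counts in 9 libraries. In these it amounted to between 18.0% and 100% of the miR-24-3p count, with a median of 65.4%. In 3 of them the counts lay within 5% of each other: equal, at 121 each, in trained library 14, 107 and 112 in trained library 25, and 99.3% in sedentary library 8. Of the 12 libraries with at least 100 counts of miR-24-3p, 4 had no count of miR-24-2-5p, and sedentary library 7, with 343 of miR-24-3p, had 1. The scatter of the arms of miR-24-2 shows both kinds of library in each group.

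**Figure D3:**
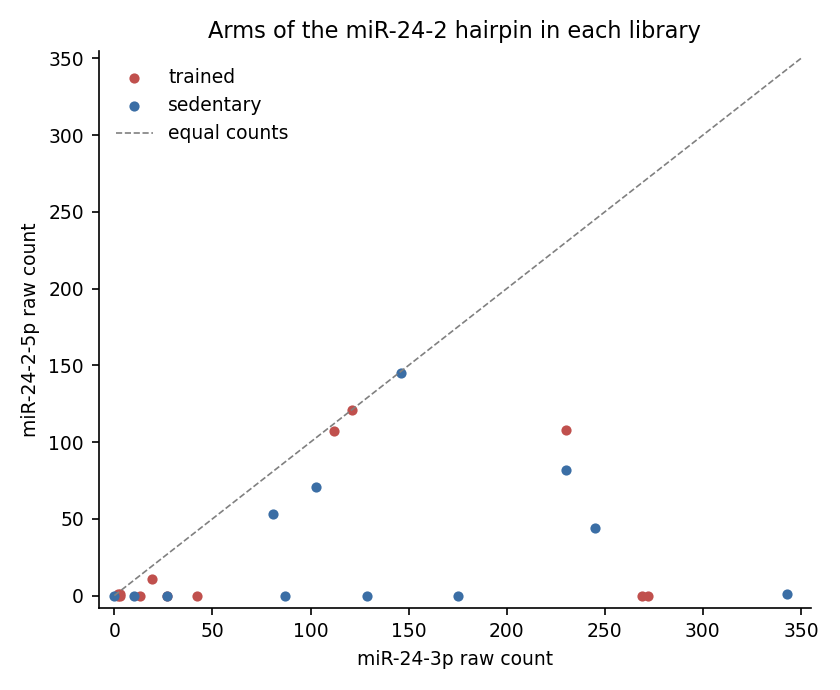
Raw counts of miR-24-2-5p on the y axis against miR-24-3p on the x axis, 1 point per library, with a dashed line at equal counts. 3 libraries lie on or next to the line, and others with over 100 counts of miR-24-3p lie at 0.

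**Figure D4:**
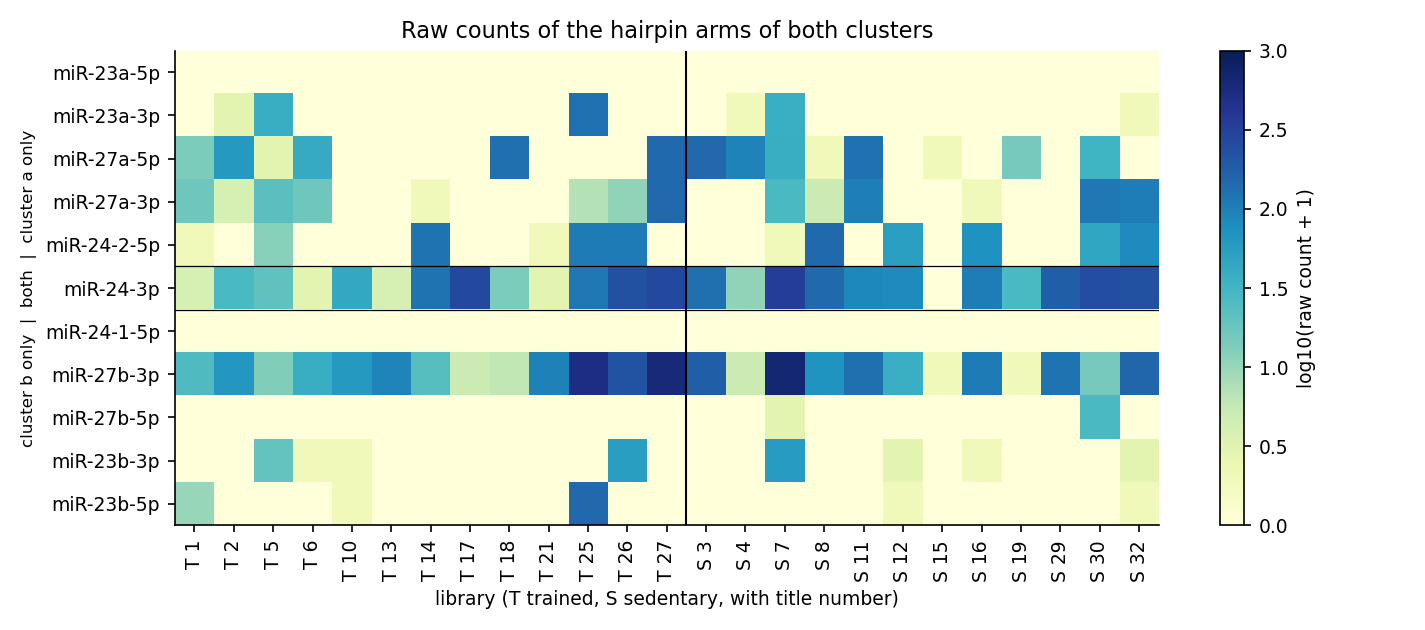
Raw counts of all 11 arms (y axis) in each library (x axis, T for trained and S for sedentary with the title number), coloured by log10(count + 1). miR-24-3p and miR-27b-3p fill nearly every library. miR-23a-5p and miR-24-1-5p are at 0 throughout, and miR-27b-5p is at 0 in every trained library. The other arms appear in some libraries of both groups and are at 0 in the rest.

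The last comparison asked whether 4 weeks of endurance training changed these miRNAs. Of the 7 members, 2 passed the filter on low counts, miR-24-3p and miR-27b-3p, and 0 passed the edgeR quasi-likelihood test at a Benjamini-Hochberg adjusted p under 0.05, against 0% of the 76 rows tested. At an unadjusted p under 0.05 the count of members was 0 of 2 with edgeR and limma-voom, beside 1 and 14 of 76 rows. It was 0 of 7 with DESeq2 and with the permutation test of CPM, beside 8 of 260 rows each. At the adjusted threshold the permutation test called 0% of 260 rows. miR-24-3p was at 873 ± 1013 CPM in trained (SD, n = 13) and 1603 ± 864 CPM in sedentary rats (SD, n = 12). Fitted with edgeR, the log2 change was -0.49 (SE 0.89, 95% interval -2.27 to 1.29, edgeR adjusted p = 0.971). 1 of 13 trained libraries, number 17, lay above every sedentary library, and it was also the 1 above the sedentary median. The difference in mean CPM was -729 (permutation test, p = 0.0655, adjusted p = 0.901 over 260 rows), and -966 without trained library 17 (permutation test, adjusted p = 0.614).

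miR-27b-3p was at 1319 ± 1098 CPM in trained (SD, n = 13) and 1235 ± 1192 CPM in sedentary rats (SD, n = 12). The fitted log2 change was 0.48 (SE 0.87, 95% interval -1.28 to 2.23, edgeR adjusted p = 0.971), and 7 of 13 trained libraries lay above the sedentary median. The median log2 fold change over all tested rows was -0.0081. These intervals are wide, and they contain both a halving and a doubling of miR-24-3p and of miR-27b-3p. In a bulk preparation, fewer mitochondria or cells carrying a miRNA and less of it in each cannot be told apart.

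The other 5 members were compared by permutation of CPM alone, adjusted over all 260 rows with a count. miR-27a-3p was at 205.8 ± 291 CPM in trained and 318 ± 542 in sedentary rats (difference -112, permutation p = 0.521, adjusted p = 0.934). miR-23a-3p was at 139 ± 329 and 19.7 ± 55.6 CPM (difference 120, permutation p = 0.412), and miR-23b-3p at 71.0 ± 160 and 31.7 ± 87.2 CPM (difference 39.3, permutation p = 0.427). miR-23b-5p was at 100.2 ± 268 and 1.97 ± 4.64 CPM (difference 98.3, permutation p = 0.346), and miR-27b-5p at 0 and 21.2 ± 70.2 CPM (difference -21.2, permutation p = 0.221; SD, n = 13 and 12; adjusted p = 0.901 for these 4). These differences moved with single libraries. For miR-23a-3p the difference was 51.9 CPM without trained library 5 and 64.2 without trained library 25. For miR-23b-3p it was 6.65 CPM without trained library 5, 12.4 without trained library 26 and 64.2 without sedentary library 7. For miR-23b-5p it was 28.5 CPM without trained library 25, and for miR-27b-5p -0.98 without sedentary library 30. For miR-27a-3p it was -11.2, -44.2 and -40.5 CPM without sedentary library 11, 30 and 32, respectively. The arms outside the members did not pass either, with 476 ± 705 and 658 ± 985 CPM for miR-27a-5p and 214.2 ± 359 and 451.3 ± 670 CPM for miR-24-2-5p (SD, n = 13 and 12; permutation p = 0.608 and 0.284, adjusted p = 1 and 0.901).

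With no filter on low counts edgeR called 25.4% of 260 rows, and 34 of these 66 rows had a count in 1 library. The calls held 2 of the 7 members. These were miR-23b-5p at 5.29 (log2, SE 2.00, edgeR adjusted p = 0.0382) and miR-27b-5p at -3.84 (log2, SE 1.13, edgeR adjusted p = 0.00758), the members with counts in 5 and 2 libraries. The permutation test and DESeq2 (adjusted p = 0.989 for both) did not call them.

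The differences between members within a library were also compared between the groups. None of the 10 pairs passed (lowest adjusted p = 0.265, permutation tests), and 1 had an unadjusted p under 0.05. That was miR-24-3p minus miR-23a-3p, at 734 CPM in trained (SD 1104, n = 13) and 1583 CPM in sedentary rats (SD 864, n = 12; permutation p = 0.0447, adjusted p = 0.265). For miR-27a-3p minus miR-27b-3p the groups differed by -196 CPM (permutation p = 0.678, adjusted p = 0.847), and for miR-23a-3p minus miR-23b-3p by 80.3 CPM (permutation p = 0.333, adjusted p = 0.556). The summed markers of other cell types, given without a test, had overlapping ranges in the groups. Their mean shares of counts in trained and sedentary libraries were 0.583% and 0.808% for endothelium, 0.219% and 0.435% for leukocytes, 2.21% and 3.04% for red cells, 2.29% and 3.20% for smooth muscle, 0.454% and 0.488% for fibroblasts and 31.3% and 27.7% for muscle. The red-cell share was that of miR-486 alone, which is also on the muscle list. Of the 4 endothelial markers 3 had a count, and miR-126a-5p was at 0. The endothelial sum was 0.161% to 1.11% of counts in trained and 0.256% to 1.92% in sedentary libraries. miR-126a-3p was at 5132 ± 2232 CPM in trained (SD, n = 13) and 7045 ± 5075 CPM in sedentary rats (SD, n = 12), and the part of any of these cell types in the level of miR-24-3p was not tested.

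The spread of both tested members between libraries lay near the middle of all rows. The SD of log2(CPM + 10) over 25 libraries was 2.26 for miR-24-3p and 2.08 for miR-27b-3p, beside a median of 2.32 over the 76 tested rows, of which 35 and 32 had a smaller one.

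**Figure D5:**
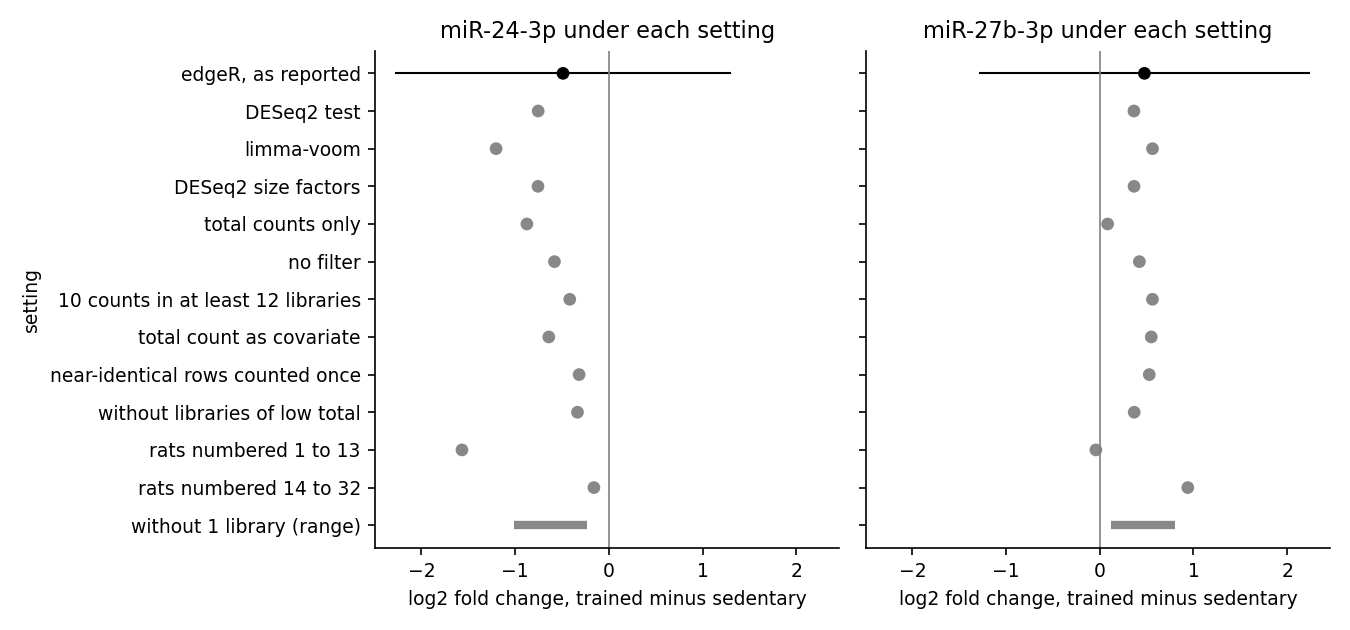
Log2 fold change, trained minus sedentary (x axis), of miR-24-3p and miR-27b-3p under each setting (y axis). The black point and line are the reported edgeR value and its 95% interval, grey points the alternatives, and the grey bar the range when 1 library is left out. miR-24-3p stayed below 0 in all settings shown, and miR-27b-3p was above 0 except among rats numbered 1 to 13.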

How the data were processed

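The authors deposited raw counts per mature miRNA (empty cells were read as 0) and a second table whose signal was, in every column, the same count over a constant (to within 1.59e-09). Tools named by the submitters' processing notes are fastp 0.20.0 and DESeq2 1.36. The sources used here do not give the aligner, counter, strand setting, handling of multiply matching reads, build or miRNA annotation. Groups and rat numbers came from the sample titles, with which the time field is in accord, whereas the treatment field names exercise training for both groups. Whether litter or batch was shared could not be checked, so the p-values rest on an unchecked assumption that these libraries are independent.

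Raw counts of all rows were tested with edgeR 4.0.16 (R 4.3.3; TMM, filterByExpr with minimum count 10 and total 15, quasi-likelihood test, Benjamini-Hochberg, threshold 0.05). CPM was tested by two-sided permutation of group labels over all 260 rows with a count, and within libraries by permuting signs over 10 pairs (100000 resamples; numpy 2.4.6, scipy 1.17.1). Alternatives used DESeq2 1.42.0, limma 3.58.1 (voom) and other scalings and filters. The tests were checked on simulated data that varied less between libraries than these data. That check therefore does not give their power here. Libraries were compared with a pseudocount of 10 CPM on log scales. RefSeq held a mature sequence for 687 of 764 rows, and for all 7 members.

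miRNAs named by rule were the members, other arms of their hairpins, rows sharing a seed, the 3 rows most like each tested member, neighbours in level, and miR-1-3p and miR-126a-3p. Other marker miRNAs, miR-3074 (antisense to a hairpin) and miR-106b-3p were named outside that rule, the last after its value was seen. Members, marker lists and tests were chosen with earlier results of these data known.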

Additional observations from a re-analysis of the deposited data

How the results depend on the processing

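No paired analysis was possible because trained and sedentary rats share no title number. With edgeR and its alternatives 0 rows and 0 members were called in 10 of 11 other settings and in 25 of 25 settings without a library. With no filter 66 rows and 2 members were called, 62 of these rows on counts in 5 libraries or fewer. Permutation of CPM called 0 rows in 3 of 4 other settings. Without sedentary library 19, of low total, it called 1 row, miR-106b-3p, which is no member (difference -1148 CPM, permutation adjusted p = 0.0494). Counted without each library in turn, an alternative chosen after seeing the data, it called 0 to 1 rows (1 without sedentary library 16, 19 or 29) and 0 members. The log2 fold change of miR-24-3p was -1.57 to -0.16 over 11 other settings and -1.01 to -0.23 without a library. That of miR-27b-3p was -0.041 among rats numbered 1 to 13, 0.94 among those numbered 14 to 32 and 0.12 to 0.81 without a library. Its difference in mean CPM ranged from -85.4 without trained library 25 to 305 without sedentary library 7, and was -20.9 without sedentary library 19. For miR-27a-3p the difference in mean log2(CPM + 10) was 0.15, opposite to that in CPM. The cause of these sign changes was not tested.

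Of the 10 within-library pairs, 6 passed in the reported test and 6 or 7 in every alternative. The 6 kept their direction and passed in all 31 alternatives. For miR-23a-3p minus miR-23b-3p the value was -0.093 on the log2 scale, -12.0 CPM in sedentary libraries and -2.49 to 47.4 CPM without a library. miR-24-3p minus miR-27b-3p was 368 CPM in sedentary libraries and -209.6 to 52.4 without a library. miR-23b-3p minus miR-23b-5p was 0.38 on the log2 scale, 29.7 CPM in sedentary libraries, 56.2 with at least 10 counts in the pair and -20.2 to 38.1 without a library. No single miR-23 strand had at least 10 counts in more than 3 libraries, and miR-27b-5p had them in 1. The deepest library, trained 27, had 0 of all these rows, and whether depth limits them was not tested.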
